A study of Mus musculus with 12 samples.

Results

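The miR-30 family of microRNAs (miRNAs, short RNAs that pair with messenger RNAs and lower their translation and stability) was examined in mouse pancreatic islets after a maternal low-protein diet. Its members were taken by name, as the assays for miR-30a, miR-30b, miR-30c, miR-30d and miR-30e on either strand, with assays marked # (starred, the less abundant strand of a hairpin) left out. This gave 7 assays with 5 member names among 750 miRNA assays on a panel of 846 spots. Islets, the hormone-secreting cell clusters of the pancreas, were hand-picked from male C57BL/6 offspring aged 2 to 3 months and kept overnight in culture before RNA was isolated. The LP0.5 group (6 samples) had mothers on a low-protein diet for the whole pregnancy, and the Control group (6 samples) had mothers on a control diet. The labels do not give the number of dams or litters behind the samples or the diet after birth. TaqMan probes were used for real-time PCR on total RNA, and for each spot the authors' deposited table holds a single linear ratio, LP0.5 over Control, with no replicate values. No ratio below therefore has an error or a p-value, and no difference was tested.

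The 5p strands of the family share a seed (bases 2 to 8, the stretch that pairs with target messengers) and come from several hairpin genes lying in pairs. In cells of the pancreas the family is known for holding back mesenchymal genes, and with them the loss of epithelial character that islet cells undergo in culture. MiR-30d has been described as raised by glucose and as favouring insulin production, and in other tissues the family is known to act on mitochondrial division, autophagy and fat cell formation.

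RefSeq sequences of assembly GRCm38.p6 were found for 5 of the 7 assays. They are shown because the strands differ by few bases and fall into 2 seed groups. The assays named miR-30c and miR-30e carry no arm in their names. They were taken as the 5p strand, the left arm of the hairpin, since the panel holds the other arm of each under a separate name. Capitals mark the seed, and each sequence runs 5′ to 3′.
miR-30a-5p: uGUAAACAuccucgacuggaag
miR-30e-5p: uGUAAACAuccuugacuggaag
miR-30c-5p: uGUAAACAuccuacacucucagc
miR-30a-3p: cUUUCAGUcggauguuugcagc
miR-30e-3p: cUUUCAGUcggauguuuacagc

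The 5p strands of miR-30a and miR-30e differ at 1 of 22 bases, C13U (the base of miR-30a first, positions counted from the 5′ end). Their 3p strands likewise differ at 1 of 22 bases, G18A. MiR-30c-5p matches both of the other 5p strands over the first 12 bases and differs at 5 of the 22 compared. MiR-384-5p, outside the family only by the rule of names used here, carries the 5p seed too. It matches miR-30a-5p over the first 8 bases and at 12 of the 22 compared.
miR-384-5p: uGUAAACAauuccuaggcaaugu

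Both arms of the miR-30a and miR-30e hairpins were assayed, so the hairpins are shown with the measured arms in capitals. Mir30a lies at chr1:23272269-23272339 on the plus strand, 19.4 kb from Mir30c-2, and Mir30e at chr4:120772606-120772697 on the minus strand, 2.98 kb from Mir30c-1 (GRCm38.p6). Mir30e and Mir30c-1 lie within Nfyc, which encodes a subunit of the NF-Y transcription factor. Mature miR-30c-5p is the same from Mir30c-1 and Mir30c-2, so its ratio cannot be assigned to either gene.
Mir30a: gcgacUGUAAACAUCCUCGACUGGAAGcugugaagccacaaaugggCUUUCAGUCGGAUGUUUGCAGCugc
Mir30e: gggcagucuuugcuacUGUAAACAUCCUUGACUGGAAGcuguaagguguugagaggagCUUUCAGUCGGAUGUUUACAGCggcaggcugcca

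The scale of the ratios was set first. The panel has 2 assay sets, A and B, of 8 blocks each, and the U6 spots of either set have a mean log2 ratio of 0, so ratios are relative to U6, a small nuclear RNA. All 5 assays of the 5p strands are in the A set and both 3p assays in the B set. Across pairs of spots of 1 control in 1 set, ratios in the authors' deposited table differed by 1.07-fold at the median and by 1.53-fold at the 95th percentile (280 pairs). This spread describes repeated spots of abundant small RNAs and leaves out the spread between mice. That ratios above 1 stand for more miRNA in LP0.5 islets is taken from the column heading alone. The study is known for reporting raised miR-199a-3p in low-protein islets, whereas its value in the authors' deposited table is 0.422. The authors' deposited table has miR-152, also linked to the study, at 0.696 and miR-342-3p, a further one, at 1.24, so these miRNAs do not settle the direction. If the ratio were turned, each value below would become its reciprocal and each order would flip: the 7 miR-30 assays would run from 0.892 for miR-30e-3p to 1.19 for miR-30e, with 0.902 for miR-30b. The ratios carry no level, so the label of islet RNA was not checked against islet miRNAs such as miR-375, and neither the abundance nor the reaction cycles of any miR-30 strand were analysed here.

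The miR-30 strands were listed close to 1. All 7 assays had a ratio, 5 above 1 and 2 below, against 50.9% of 566 miRNA spots above 1. Their median ratio was 1.07, and that of all miRNA spots was 1.01. None of the 7 was at least 1.5-fold from 1, where 35.3% of all miRNA spots were, and none at least 2-fold, where 24.2% were. Nor did the higher level exceed the lower by 25% for any of the 7, as it did for 52.8% of all miRNA spots, though this changed under other references (given with those below). The strand farthest from 1 lay 1.19-fold away, and 220 of the 566 spots (38.9%) lay as near to 1 as that.

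**Figure D1:**
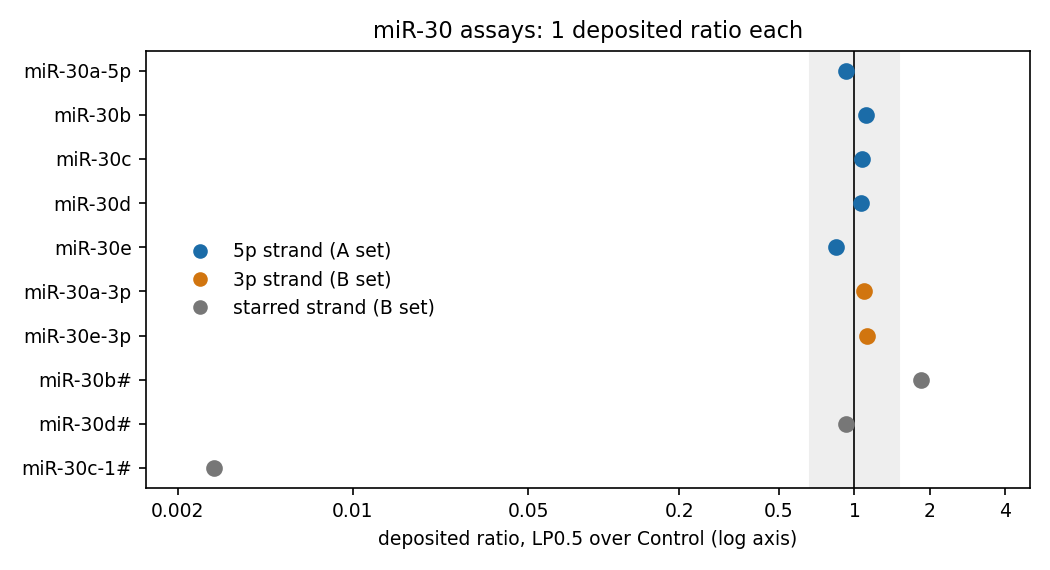
Ratio of LP0.5 over Control for each miR-30 assay with a value (log axis), 1 deposited ratio per point and no error available. The 7 unstarred strands lie between 0.842 and 1.12 inside the shaded band of less than 1.5-fold, while miR-30b# lies at 1.85 and miR-30c-1# at 0.00280.

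Of the 5p strands, which carry the seed the family is known by, 3 were listed just above 1 and 2 below. MiR-30b had the highest of them, 1.11 in the authors' deposited table. MiR-30c, from both of the miR-30c genes, stood at 1.07 in the authors' deposited table. MiR-30d, the glucose-linked member, had a ratio of 1.06 in the authors' deposited table. These 3 were within 1.05-fold of one another, and miR-30b and miR-30d are made from neighbouring genes.

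MiR-30a-5p and miR-30e, whose 5p strands differ by the single base C13U, were the pair below 1. The authors' deposited table gives 0.925 for miR-30a-5p. For miR-30e the value in the authors' deposited table was the lowest of the 7, 0.842. Both were measured in block B2 and differed by 1.10-fold, with U6 of that block at 1.02 in the authors' deposited table. The controls Y1 and snoRNA135 stood at 0.966 and 1.11 in B2. They stood higher in block A1 of miR-30b (1.43 and 1.30) and in block C1 of miR-30c and miR-30d (1.18 and 1.30). In B2, A1 and C1 the controls snoRNA202 (1.09, 1.12 and 1.10) and U87 (1.08, 1.11 and 1.03) differed less. The part of the block in the side of 1 was not tested. The gap between the highest and the lowest 5p strand, miR-30b over miR-30e, was 1.32-fold. It is below the 95th percentile of 1.53-fold between repeated control spots, and also below the 1.42-fold found when 1 outlying spot of the control U87 is left out. The order of the 5p strands was therefore not resolved at this precision.

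Among all A set assays the 5p strands lay in the middle of the distribution. The lowest, miR-30e, was at percentile 32.7 of 304 A set ratios, miR-30a-5p was at 42.6, miR-30d at 61.0, miR-30c at 62.0 and miR-30b at 66.3. The central part of the A set, between percentiles 25 and 75, spanned 0.796 to 1.19, and all 5 fell inside it.

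The 3p strands of miR-30a and miR-30e, which carry a different seed, were both listed above 1. MiR-30a-3p had a value of 1.09 in the authors' deposited table. MiR-30e-3p was the highest of the 7, at 1.12 in the authors' deposited table. They were measured in the same block, A3, and were 1.03-fold apart, with U6 of that block at 1.03 in the authors' deposited table. Of the 262 ratios of the B set the part between percentiles 25 and 75 spanned 0.784 to 1.48, and these strands lay at percentiles 54.8 and 57.1.

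**Figure D2:**
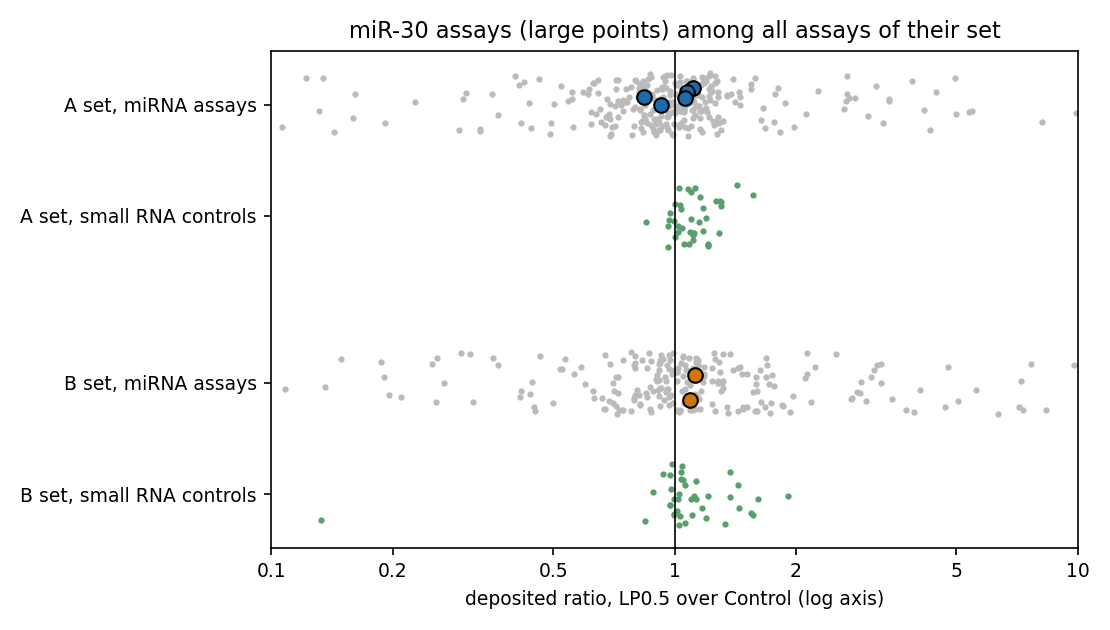
Ratios of all miRNA assays (grey), small RNA control spots (green) and miR-30 assays (large points) by assay set, on a log axis from 0.1 to 10. The miR-30 points lie in the dense middle of each set. Beyond the axis lie 5 ratios below and 5 above in the A set, and 14 below and 10 above in the B set.

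The arms of 1 hairpin are cut from the same precursor, and for miR-30a and miR-30e the 3p arm had the higher ratio in both cases. The ratio of the 3p strand exceeded that of the 5p strand by 1.18-fold for miR-30a and by 1.33-fold for miR-30e. The arms lie in different sets, so this difference depends on how each set was scaled. Scaled to the control Y1, the 3p over 5p quotient was 0.943 for miR-30a and 1.06 for miR-30e, and scaled to the median of all miRNA spots of each set it was 1.10 and 1.24. Over all 8 other references described below it ran from 0.943 to 1.249 for miR-30a and from 1.06 to 1.41 for miR-30e, the highest under snoRNA202. With the ratio turned, the quotients under U6 would be 0.847 and 0.751. Both quotients under U6 are smaller than the 1.53-fold of repeated control spots. That spread was taken within 1 set and leaves out any difference of scale between the sets.

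The starred strands, outside the family by the rule, spread far more widely. MiR-30d#, the other arm of miR-30d, had 0.926 in the authors' deposited table, 1.14-fold below its 5p strand. MiR-30b# stood at 1.85 in the authors' deposited table, which is 1.67-fold above miR-30b. The value of miR-30c-1# was 0.00280 in the authors' deposited table, 357-fold below 1, and only 5 of the 566 miRNA spots were at or below that value. Whether this assay was near its detection limit in either group was not analysed here, so the size of the value may not be a measured difference. For miR-30c-2# the authors' deposited table lists no ratio. Under the other 8 references miR-30b# stayed above 1, from 1.24 to 1.89, miR-30d# stayed below, from 0.619 to 0.937, and miR-30c-1# did not pass 0.00271. For miR-30d# this was nearly fixed in advance, since every reference but U6 of the same block lowers its ratio. For miR-30c-1# it was fixed in advance. Its log2 ratio was -8.48, and the largest shift of the B set was 0.580 on that scale, under Y1. Both miR-30c starred strands carry a common seed and differ at 3 of 22 bases, G9A, U12C and C22U, with the base of miR-30c-1 first.
miR-30c-1-3p: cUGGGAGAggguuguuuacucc
miR-30c-2-3p: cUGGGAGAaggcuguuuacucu

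All 4 starred assays are in the B set. In that set the spots of ath-miR159a, a plant miRNA that mice lack, had ratios between 2.59 and 3.37 in the authors' deposited table. What these share with the value of miR-30b# was not tested. Among starred assays of the whole panel, 37 of 95 with a ratio (38.9%) were at least 1.5-fold from 1, close to the 34.6% of 471 unstarred ones.

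The side of 1 on which a miR-30 strand fell depended on the reference for 5 of the 7. Ratios were rescaled to 8 other references: U6 of the same block, the median of all miRNA spots of the set, each of the controls snoRNA135, snoRNA202, U87 and Y1 alone, their mean, and that mean without the outlying U87 spot. MiR-30e and miR-30a-5p stayed below 1 under all 8, from 0.695 to 0.863 for miR-30e and from 0.764 to 0.948 for miR-30a-5p. Every reference but the panel median lowers the ratios of their block, and the panel median subtracts only -0.035 in the A set (log2 scale). For strands that start below 1 this was therefore nearly fixed in advance and does not show that the side holds. MiR-30b was above 1 under 4 and below under 4, with a range of 0.916 to 1.14. MiR-30c (0.887 to 1.12) and miR-30d (0.874 to 1.10) were below 1 under 6. The 3p strands were below 1 under 3, with ranges of 0.731 to 1.06 for miR-30a-3p and 0.750 to 1.09 for miR-30e-3p.

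No strand was at least 1.5-fold from 1 under any of the 9 scalings, where 35.3% to 46.5% (the highest under Y1) of all miRNA spots were. The nearest was miR-30e at 0.695 relative to snoRNA135. At the limit of 25% between the levels, none passed under U6 of the same block or the panel median. That limit was passed by 1 strand under each of 4 references (snoRNA202, U87, and the mean of the other controls with and without the outlying spot), by 2 under snoRNA135 and by 4 under Y1. The share of all miRNA spots past that limit was taken for the deposited scaling only (52.8%), so these counts have no share beside them. The 4 under Y1 were the strands of miR-30a and miR-30e, whose blocks held the lowest Y1 spot of each set. The medians of the other controls lay above that of U6 in both sets, so they moved the whole panel down as well. Relative to Y1 the median of the 7 strands was 0.775 and that of all miRNA spots 0.766, and relative to snoRNA135 these were 0.887 and 0.837. Apart from the U6 scaling by block, each reference subtracts 1 value per set. The order and spacing of the 5p strands in the A set therefore stay as listed by construction, which does not show that the order holds. Scaling to the other controls of the same block was not done.

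**Figure D3:**
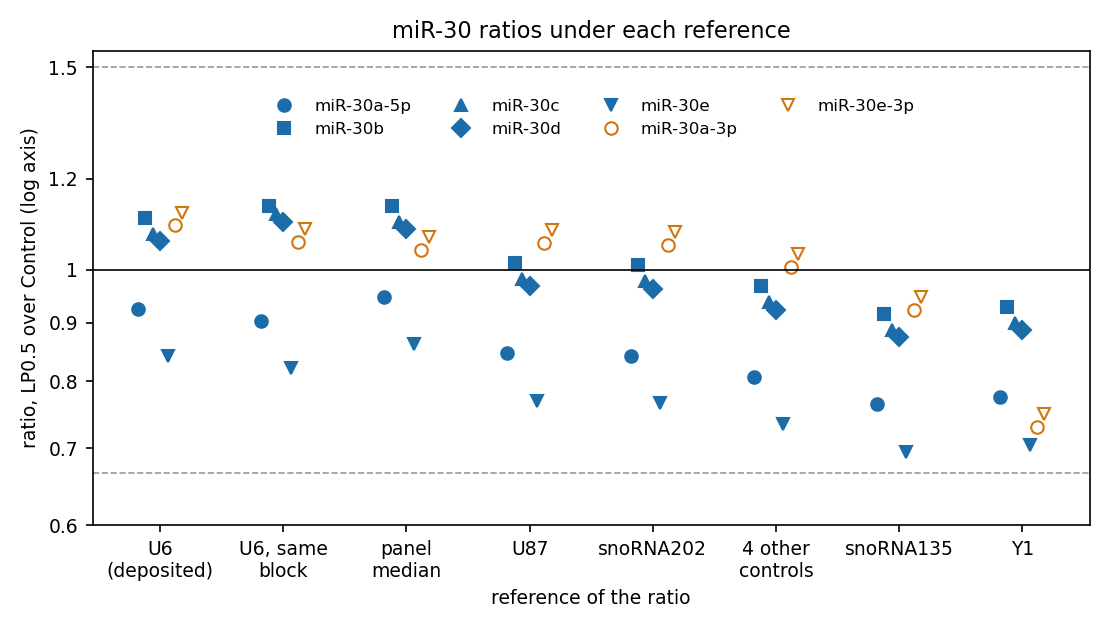
Ratio of each of the 7 miR-30 strands (5p filled, 3p open) under the deposited U6 scaling and 7 other references, on a log axis with dashed lines at 1.5-fold from 1. MiR-30e and miR-30a-5p are below 1 in every column, the other strands cross 1, and no point reaches a dashed line.

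MiR-384-5p, which carries the same seed, lay between the miR-30 5p strands, with 0.969 in the authors' deposited table. It was below 1 under all 8 other references, from 0.801 to 0.993. Only the panel median and U6 of the same block raise the ratio of miR-384-5p, to 0.993 and 0.992. The others lower it by construction. Its partner strand miR-384-3p had a ratio of 0.717 in the authors' deposited table.

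The spread within the miR-30 family was set beside that of other families whose assays share a number and differ by a letter. With starred strands left out, 7 such families had at least 5 ratios. From the lowest to the highest ratio the miR-30 family spanned 1.33-fold over 7 ratios, the narrowest span of the 7 families. The miR-200 letters, known for keeping epithelial character, spanned 1.38-fold over 5 ratios, and the let-7 letters, known for restraining growth, 1.57-fold over 8. The other families ran from 4.29-fold for miR-669 to 261-fold for miR-466. Families differ in how abundant their members are, which was not analysed here, and the difference in span was not tested. The A set alone held 3 families with at least 4 ratios, and there the miR-30 span was 1.32-fold against 1.41-fold for miR-467 and 1.57-fold for let-7.

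**Figure D4:**
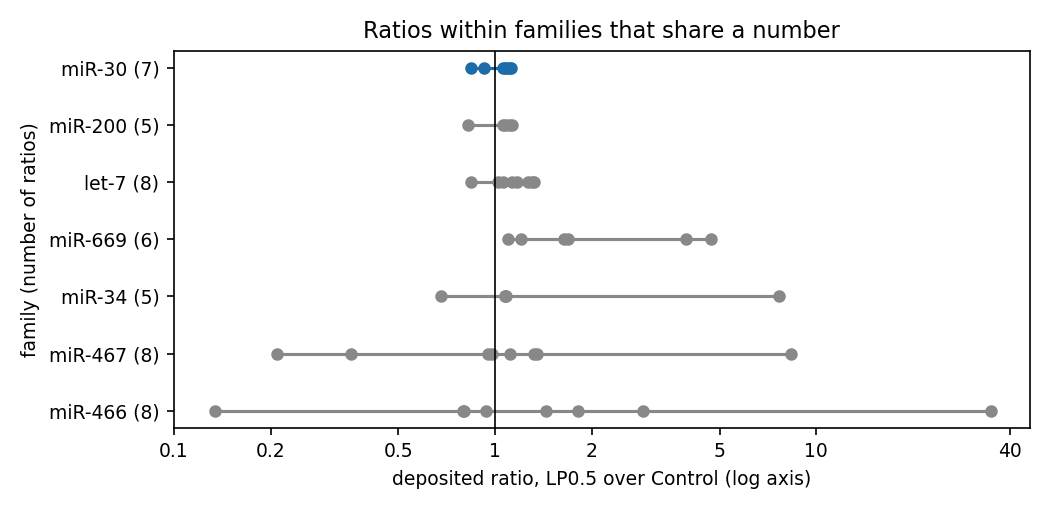
Ratios of each assay (points) and their span (lines) in the 7 families with at least 5 ratios, on a log axis, with the number of ratios in brackets. The miR-30, miR-200 and let-7 points lie between 0.822 and 1.32, whereas the other families reach far beyond.

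The miRNAs taken as the wider programme, those linked to epithelial or mesenchymal state in islet cells, spread more than the miR-30 strands. So did the panel as a whole, with 35.3% of all miRNA spots at least 1.5-fold from 1. Of the 20 miRNAs of the programme, all with a ratio, 7 were above 1 and 13 below, with a median ratio of 0.832. At least 1.5-fold above 1 was 1 of them and at least 1.5-fold below 1 were 5, against 18.6% and 16.8% of all miRNA spots. The member above was miR-145, a mesenchymal miRNA, at 2.66 in the authors' deposited table. Those below included the beta cell miRNA miR-7b and also miR-211, which the authors' deposited table puts at 0.523 and 0.632. Other beta cell members, named after their values were seen, were nearer to 1 or above it, with miR-7a at 0.918, miR-375 at 1.17 and miR-204 at 1.26 in the authors' deposited table. The mesenchymal miR-199a strands were also below, the 5p strand at 0.403 and the 3p strand at 0.422 in the authors' deposited table. The remaining one, miR-143, was below through averaging of its assays, which the authors' deposited table lists at 0.190 and 1.11. Across the other 8 references the number above 1 was 3 to 7 and the number at least 1.5-fold below 1 was 5 to 8. The share of all miRNA spots above 1 moved as well, from 24.7% under Y1 to 51.1% under U6 of the same block. Their share at least 1.5-fold below 1 was not taken under these references.

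Other cells of an islet preparation can also hold miR-30 strands, and a smaller share of a cell type cannot be told apart from less RNA per cell in whole islets. The ranges that follow are of ratios in the authors' deposited table after averaging the assays of each miRNA. The 6 endocrine marker miRNAs ran from 0.523 to 1.45 with 3 above 1. The 3 acinar ones ran from 0.726 to 1.32 with 1 above, and both endothelial ones were below, at 0.647 and 0.975. The blood cell markers with a ratio, 5 of 6, ran from 0.305 to 1.78 with 3 above 1. The 6 fibroblast markers ran from 0.403 to 7.14 with 3 above. Single assays reached beyond these ranges: the authors' deposited table lists the fibroblast marker miR-143 at 0.190 and 1.11. It lists the acinar marker miR-217 at 0.950 and 1.83. The part of these cell types in the miR-30 ratios was not tested.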

How the data were processed

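The authors deposited linear ratios (fold values) of LP0.5 over Control, 1 per spot, per the file headers; 190 of 846 spots have none. How they were averaged, scaled and limited is not given in the sources used here; limma is named in the submitters' processing notes without version or role. Assay codes and names of the spots came from a further deposited table (other, non-numeric columns). Its 12 columns of per-sample values match no sample label by name and were used in no step, so the planned limma test, its error and its depth were not run. The members and lists were chosen with earlier results of these data known. Named were all miR-30 strands, the controls, and list members at least 1.5-fold from 1; miR-384 and the family spans were chosen after values were seen. Ratios were converted to log2, assays of 1 list member averaged, and medians, counts and percentiles computed; recentring subtracted a reference's log2 value within each set. Steps were tested on simulated data. Sequences were read from RefSeq (GRCm38.p6). Python 3.11.15, numpy 2.4.6, pandas 2.3.3 and matplotlib 3.10.9 were used.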

Additional observations from a re-analysis of the deposited data

How the results depend on the processing

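The count of miR-30 strands at least 1.5-fold from 1 was 0 under all 8 other references, and with the deposited scaling it was 0 at a 2-fold limit and at a limit of 25% between the levels. At the 25% limit it was 1 under 4 references, 2 under snoRNA135 and 4 under Y1. Those 4 came from blocks in which Y1 lay below the set median used as the reference. The share of all miRNA spots past the 25% limit was not taken under these references. The median log2 ratio of the 7 strands, 0.10 as deposited, moved by more than the SD of repeated control spots without the outlying U87 spot (0.168 on the log2 scale) under 4 references. With that spot the SD is 0.370, and 1 reference, Y1, moved the median by more. It was -0.093 relative to the mean of snoRNA135, snoRNA202, U87 and Y1, -0.093 relative to that mean without the outlying U87 spot, -0.17 relative to snoRNA135 and -0.37 relative to Y1. These 4 references have log2 values above that of U6 in both sets, which lowers every ratio by construction. Relative to snoRNA202 or U87 the median also turned below 0 but by less than that SD (-0.033 and -0.026), and with starred strands included or 1 value per member name it was 0.093 and 0.082. The reference without the outlying U87 spot, the family spans and the A set alone were chosen after seeing the data. No paired analysis was possible because the deposited ratios carry no replicate values, and the limma alternatives were not run because the columns of per-sample values match no sample label by name. Without values assigned to samples no bound was set on the true difference of any miR-30 strand.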
